A study of Mus musculus with 8 samples.

Results

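The comparison described here sets the mouse cell line EHE17 against the mouse cell line EHE6, gene by gene. It uses the 3 libraries labelled EHE17 and the 3 labelled EHE6, which are 6 of the 8 RNA sequencing libraries of the series, and it was made over all replicates, inside replicates 1 and 2, and inside replicate 3. Both lines come from epithelioid hemangioendothelioma (EHE), a rare cancer with endothelial features whose usual driver is a fusion of the genes for TAZ (Wwtr1 in the mouse) and Camta1. EHE17 and EHE6 cells differ, as far as the labels go, in the name of the line and in nothing else. Polyadenylated RNA was taken from washed cells of either line, and no treatment is named. The genotype of the animals behind the lines, the site of the tumours, the sex, the passage number and whether a line is a single clone are not given in the sources used here. It is also not stated whether replicates were separate cultures, so every p-value measures only the spread between these libraries, which may be technical. The EHE26 libraries, replicates 1 and 2 of a line from the same series, took no part in the comparison and lent their spread to the fit.

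Endothelial cells line blood and lymphatic vessels, and the lymphatic kind is known by the regulator Prox1, the receptor Flt4 (VEGFR-3) and the hyaluronan receptor Lyve1. Hox genes encode transcription factors that lie in clusters and are switched on along the body axis of the embryo, and adult endothelial and stromal cells keep patterns of Hox expression that depend on where in the body they came from. Interferon-stimulated genes, guanylate-binding proteins and the MHC class I machinery are raised by interferon signalling in most cell types, endothelium included.

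Each library held 44620965 to 96237665 counted reads. Replicate 3 was the shallowest of either line, with a read for 20066 genes in EHE6 and 20682 in EHE17, against 24462 to 25177 genes in replicates 1 and 2. Replicate 3 of EHE6 also stood apart in rank order. Its Spearman correlation across genes was 0.894 and 0.888 with replicates 1 and 2 of its own line and 0.921 with replicate 3 of EHE17, whereas replicates 1 and 2 of EHE6 correlated at 0.981. Replicates 1 and 2 of EHE17 correlated at 0.9705 with each other. EHE17 replicate 1 correlated at 0.9741 with EHE6 replicate 2, and EHE17 replicate 2 at 0.9707 with EHE6 replicate 1. Their correlations with the EHE6 library of the same number were 0.9576 and 0.9574. Replicate 3 of EHE17 correlated at 0.938 and 0.930 with its own line. What sets replicate 3 apart is not given in the sources used here. The endothelial markers Pecam1 and Cdh5 were read in all 6 libraries, at 1179 to 1675 and 1056 to 4890 CPM (read counts scaled to library size with TMM factors). The 20 pan-endothelial markers summed to 17305 to 19675 CPM in replicates 1 and 2 of both lines, to 14640 CPM in EHE17 replicate 3 and to 4948 CPM in EHE6 replicate 3. Camta1 lay at 264 to 395 CPM in EHE6 and 364 to 595 CPM in EHE17, and Wwtr1 at 72.1 to 89.8 and 74.5 to 116 CPM, with overlapping lines for both genes. Gene counts do not show whether reads came from a fusion.

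Over all replicates EHE17 was higher than EHE6 in 15 genes and lower in 12. The higher genes included a lymphatic receptor (Lyve1), the Hox B genes Hoxb6 and Hoxb7, the interferon-linked genes Ifi44, Gbp3 and Nlrc5, the necroptosis kinase Ripk3 and the sodium channel gene Scn3a. The lower genes included the latent TGF-beta binding protein Ltbp1, the stromal antigen gene Cd248, the protease gene Adamts12, the glycosyltransferase gene B3gnt3 and the Y-linked gene Ddx3y. These 27 genes are 0.143% of the 18882 tested, each called at a Benjamini-Hochberg adjusted p under 0.05 in the edgeR quasi-likelihood test and a log2 fold change of at least 1 in size. Of the 27, 5 are predicted genes or pseudogenes. In all 27 the libraries of the lines did not overlap, as in 12.2% of all tested genes. Since the 27 were picked by the line test, the lack of overlap adds no support to their calls. The count depended on single libraries. It was 5, 4 and 54 without EHE6 replicates 1, 2 and 3, it was 1 and 4 without EHE17 replicates 1 and 2, and it was 8 without either EHE26 library. With the 6 libraries of the lines alone it was 7, and Hoxb7, Ltbp1 and Scn3a kept their call while the other 19 genes with a symbol lost it. Hoxb7 was still called with any 1 of the 8 libraries left out, while the other 21 genes with a symbol each lost their call without EHE17 replicate 1.

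**Figure D1:**
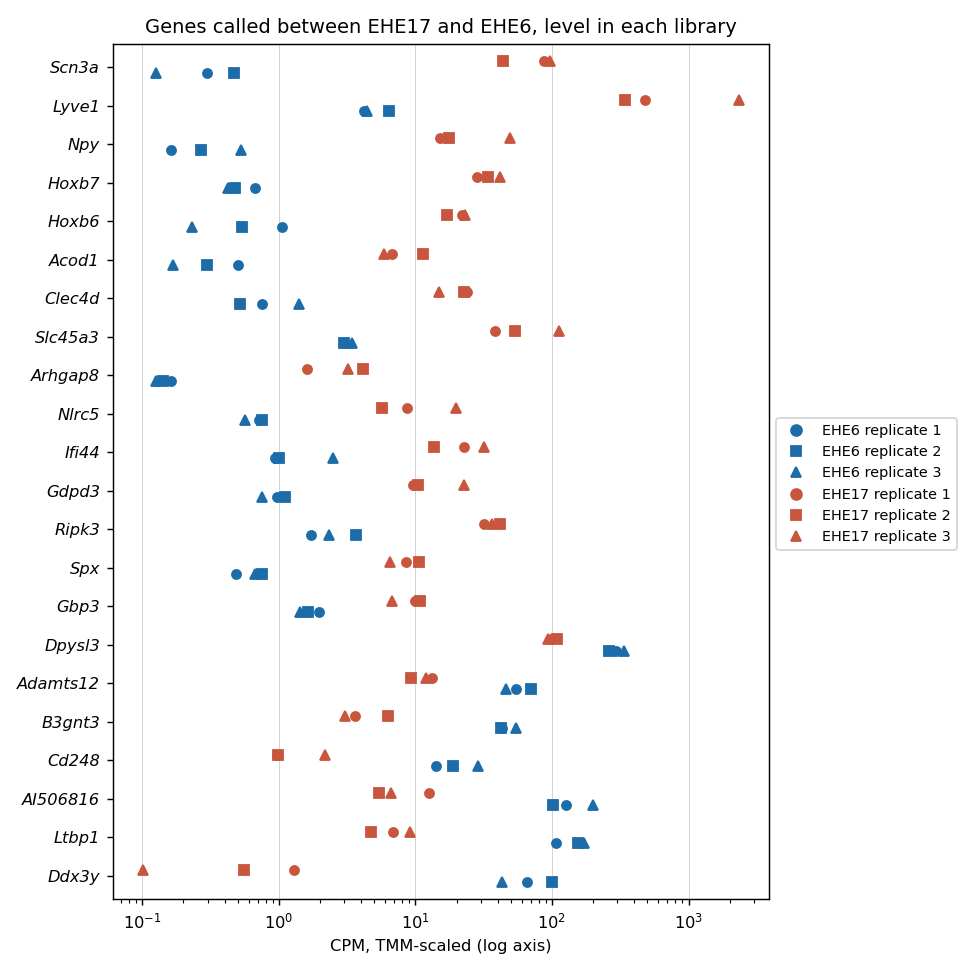
Level of the 22 genes with a symbol called between the lines, in CPM on a log axis, with a point for each library, the line given by colour and the replicate by shape. In all 22 genes the 3 EHE17 libraries lie on the same side of the 3 EHE6 libraries, from Scn3a, where they are highest relative to EHE6, to Ddx3y, where they are lowest. The genes were picked by the line test, and the lines also did not overlap in 12.2% of all tested genes.

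Of 8 tested genes of the Hox B cluster, 2 were called as higher in EHE17. By at least 1 on the log2 scale, 7 were higher both in replicates 1 and 2 and in replicate 3. Among all tested genes 5.76% differed by at least 1 with the same sign, in either direction, in both of these sets. Hoxb7, ENSMUSG00000038721, at chr11:96286623-96290162 of GRCm38 on the plus strand, was at 0.673, 0.480 and 0.420 CPM in EHE6 replicates 1, 2 and 3 and at 28.3, 33.8 and 42.0 CPM in EHE17. No EHE6 library came near the lowest EHE17 library. Its log2 fold change was 6.03 (SE 0.34, n = 3 libraries a line, adjusted p = 0.0019 in the edgeR quasi-likelihood test). Hoxb6, its neighbour at chr11:96292476-96301569, was at 1.05, 0.536 and 0.231 CPM in EHE6 and 22.1, 16.97 and 23.2 CPM in EHE17. The lines again did not overlap, and the log2 fold change was 5.08 (SE 0.56, adjusted p = 0.030, or 0.0509 with the replicate number as a block). Block fits over all replicates left out EHE26. Without EHE26 and without a block the edgeR adjusted p of Hoxb6 was 0.0860.

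Of the 10 Hox B genes listed, 8 had enough reads for the test, and Hoxb1 and Hoxb13 did not. Over all replicates 2 of the 8 were called, both higher, and in replicates 1 and 2 there were 4, Hoxb4, Hoxb6, Hoxb7 and Hoxb8. Among all tested genes the called shares were 0.143% and 0.523%. Hoxb4 lay at 0.0840 to 0.539 CPM in EHE6 and 8.01 to 11.3 CPM in EHE17, and its adjusted p was 0.0626 over all replicates and 0.0155 in replicates 1 and 2. Hoxb8 lay at 0.231 to 0.833 and 7.72 to 16.2 CPM. Hoxb3 lay at 0.0420 to 0.310 and 3.69 to 5.72 CPM and Hoxb5 at 0.0840 to 1.14 and 3.71 to 6.67 CPM. Neither of them was called. Their lines did not overlap either, which was also so for 12.2% of all tested genes. Hoxb2 and Hoxb9, the outermost of the tested genes, were at most at 1.24 CPM in the 6 libraries, and the lines overlapped. The median log2 difference of the 8 genes was 4.52 over all replicates, 3.94 in replicates 1 and 2 and 6.03 in replicate 3, beside -0.03, -0.02 and 0 for all tested genes. Reads of the many antisense transcripts of Hox clusters may be part of these counts, since the strand setting of the counting is not given in the sources used here.

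In the Hox A cluster the median line difference was larger in replicates 1 and 2 than in replicate 3. Of 9 tested genes, 8 were higher in EHE17 by at least 1 in replicates 1 and 2, against 2 higher and 1 lower in replicate 3. Among all tested genes 12.5% differed by at least 1 in either direction in replicates 1 and 2 and 33.2% in replicate 3, so the replicate 3 count of the cluster was at the background. None of the 9 (of 11 listed) was called over all replicates, while Hoxa3, Hoxa4 and Hoxa7 were called as higher in replicates 1 and 2. The share called there among all tested genes was 0.523%. Hoxa7 was at 0.108 and 0.367 CPM in EHE6 replicates 1 and 2 and at 8.55 CPM in EHE6 replicate 3, and at 13.8, 17.8 and 38.3 CPM in EHE17. EHE6 replicate 3 thus lay nearer to EHE17 than to its own line. The log2 fold change of Hoxa7 was 6.07 (SE 0.63) in replicates 1 and 2 with an adjusted p of 0.0271, the log2 CPM difference was 2.16 in replicate 3, and the test of the difference between them gave an adjusted p of 0.0599. The median of the 9 Hox A genes was 4.96 in replicates 1 and 2 and -0.06 in replicate 3. Their summed level was 2.73 and 5.60 CPM in EHE6 replicates 1 and 2, 34.4 CPM in EHE6 replicate 3 and 38.2 to 60.2 CPM in EHE17. In the Hox D cluster 6 of 9 genes were tested, and Hoxd10 was the gene called in replicates 1 and 2. It was at 2.69 and 3.46 CPM in EHE6 replicates 1 and 2, 18.0 CPM in EHE6 replicate 3 and 15.4 to 18.3 CPM in EHE17, and its line difference changed between the replicate sets (-2.70, adjusted p = 0.0470). The Hox C genes, 9 listed, had too few reads to be tested.

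Among lymphatic endothelial genes, Lyve1 was called as higher in EHE17 over all replicates and Mmrn1 joined it in replicates 1 and 2. Lyve1, ENSMUSG00000030787, at chr7:110850607-110863239 on the minus strand, was at 4.23, 6.42 and 4.41 CPM in EHE6 and at 476, 342 and 2352 CPM in EHE17. Every EHE17 library was far above every EHE6 library, and EHE17 replicate 3 was the highest. The log2 fold change was 7.72 (SE 0.95, adjusted p = 0.0367). Mmrn1, which encodes a secreted glycoprotein of lymphatic endothelium and platelets, was at 3.26, 4.11 and 0.294 CPM in EHE6 and 60.8, 77.7 and 143 CPM in EHE17. It was called in replicates 1 and 2 with a log2 fold change of 4.25 (SE 0.32, adjusted p = 0.0155), and its difference was larger in replicate 3 by 4.69 on the log2 scale (adjusted p = 0.0374).

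The regulator Prox1 was at 34.3, 50.7 and 3.09 CPM in EHE6 and 221, 111 and 268 CPM in EHE17. Its lines did not overlap, as in 12.2% of all tested genes. The edgeR adjusted p of Prox1 was 0.729 over all replicates and 0.113 in replicates 1 and 2. Flt4 was at 451, 626 and 77.8 CPM in EHE6 and 1679, 1904 and 1090 CPM in EHE17, with adjusted p-values of 0.53 and 0.0684. Pdpn, which encodes the membrane glycoprotein podoplanin, was at 0.210 to 1.76 CPM in EHE6 and 2.06 to 16.2 CPM in EHE17. Of the 12 lymphatic genes tested, 1 was called over all replicates and 2 in replicates 1 and 2, all higher. Among all tested genes the called shares were 0.143% and 0.523%. By at least 1, 5 were higher and 1 lower in replicates 1 and 2, and 11 higher and 1 lower in replicate 3. The shares of all tested genes, in either direction, were 12.5% and 33.2%. The list median was 1.78 over all replicates, 0.72 in replicates 1 and 2 and 5.77 in replicate 3. The median was highest in replicate 3, where the pan-endothelial sum of EHE6 was low and its lymphatic genes summed to 286 CPM against 1479 and 1706 CPM in replicates 1 and 2. The part of that library in the lymphatic result was not tested, and without it the median was 1.27. In bulk RNA, fewer cells of a type and less RNA per cell cannot be told apart.

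**Figure D2:**
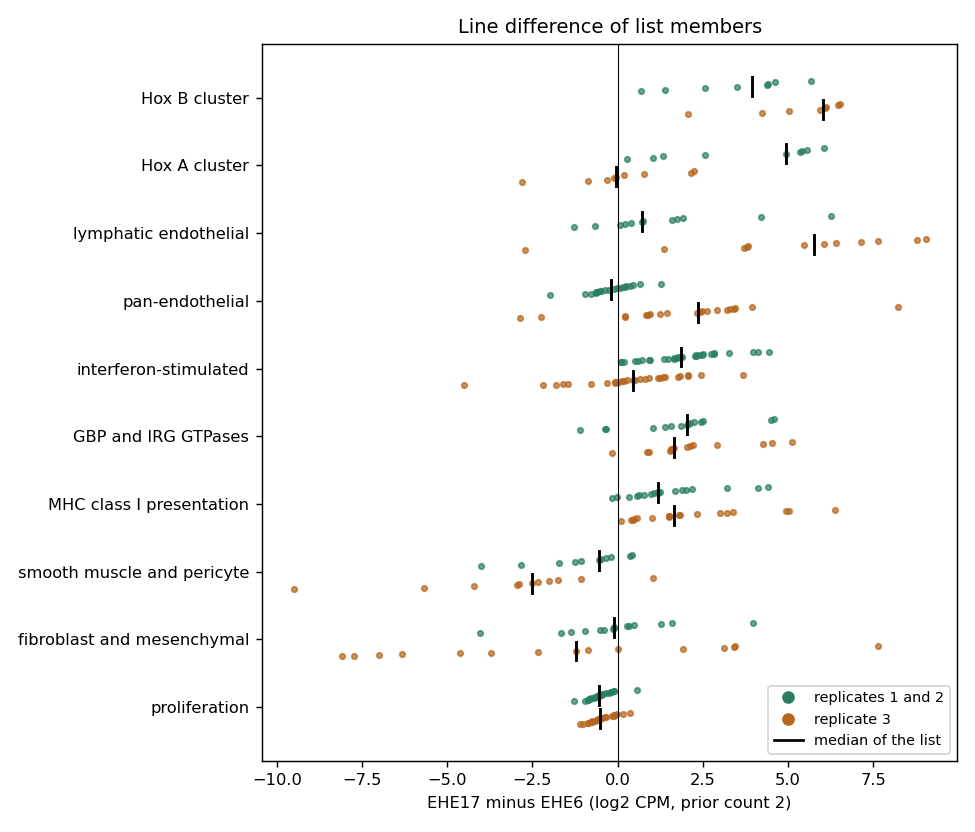
Line difference of the tested members of 10 gene lists in log2 CPM, in replicates 1 and 2 (green) and in replicate 3 (brown), with a point for each gene and a bar at the median. The Hox B points lie to the right in both sets (medians 3.94 and 6.03), the Hox A points do so in replicates 1 and 2 (4.96 against -0.06), and the pan-endothelial points move right in replicate 3 (-0.19 against 2.37).

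Ifi44, Gbp3 and Nlrc5, genes raised by interferon, were called as higher in EHE17. Ifi44, an interferon-induced gene at chr3:151730922-151749960, was at 0.943, 1.002 and 2.48 CPM in EHE6 and 22.7, 13.6 and 32.0 CPM in EHE17. The lines did not overlap, as in 12.2% of all tested genes, and the log2 fold change was 3.96 (SE 0.51, adjusted p = 0.0439). Gbp3, which encodes a guanylate-binding protein of the defence against intracellular pathogens, was at 1.98, 1.62 and 1.43 CPM in EHE6 and 9.97, 10.8 and 6.74 CPM in EHE17. All EHE17 libraries exceeded all EHE6 libraries, with a log2 fold change of 2.45 (SE 0.27, adjusted p = 0.0301, or 0.237 with a replicate block). Nlrc5, the transactivator of MHC class I genes, was at 0.714, 0.748 and 0.567 CPM in EHE6 and 8.70, 5.73 and 19.7 CPM in EHE17. Its log2 fold change was 4.06 (SE 0.50, adjusted p = 0.0367, or 0.149 with a replicate block).

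Of the 29 interferon-stimulated genes tested, 1 was called over all replicates and Ifi44 and Rtp4 in replicates 1 and 2. Among all tested genes the called shares were 0.143% and 0.523%. A log2 difference of at least 1 was seen in 21 of the 29 in replicates 1 and 2, all higher, and in 15 in replicate 3, with 10 higher and 5 lower, beside 12.5% and 33.2% of all tested genes. The list median was 1.20 over all replicates, 1.86 in replicates 1 and 2 and 0.45 in replicate 3. Rtp4, an interferon-induced chaperone for receptors, was at 1.05, 0.663 and 2.79 CPM in EHE6 and 10.6, 17.2 and 4.94 CPM in EHE17. Its line difference was smaller in replicate 3 by 3.20 on the log2 scale (adjusted p = 0.0450). Isg15, a ubiquitin-like protein gene, was at 0.552, 0.536 and 4.08 CPM in EHE6 and 6.73, 23.2 and 17.2 CPM in EHE17, with an adjusted p of 0.39.

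Among the guanylate-binding and immunity-related GTPases, 15 were tested, Gbp3 was called over all replicates, and Tgtp1 and Tgtp2 were called in replicates 1 and 2. Among all tested genes the called shares were 0.143% and 0.523%. Tgtp2 was at 0.687, 0.550 and 2.35 CPM in EHE6 and 16.4, 15.0 and 9.81 CPM in EHE17, and its log2 fold change in replicates 1 and 2 was 4.67 (SE 0.36, adjusted p = 0.0155). Tgtp1 and Tgtp2 are near-identical copies, so their reads may have been shared between them. The median of the 15 was 1.96 over all replicates, 2.03 in replicates 1 and 2 and 1.65 in replicate 3. By at least 1, 12 were higher and 1 lower in replicates 1 and 2, and 12 higher and 0 lower in replicate 3. The shares of all tested genes, in either direction, were 12.5% and 33.2%. The summed level of the 15 overlapped between the lines, at 149, 317 and 71.4 CPM in EHE6 and 371, 252 and 176 CPM in EHE17.

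The 18 genes of MHC class I presentation had a median of 1.42 over all replicates, 1.19 in replicates 1 and 2 and 1.66 in replicate 3. Nlrc5 was the member called over all replicates, and H2-Q4, H2-Q6 and H2-Q7 joined it in replicates 1 and 2. Among all tested genes the called shares were 0.143% and 0.523%. H2-Q7, a non-classical class I heavy chain, was at 0.620, 0.423 and 1.03 CPM in EHE6 and 11.9, 11.2 and 87.8 CPM in EHE17. Its log2 fold change was 4.47 (SE 0.40, adjusted p = 0.0169) in replicates 1 and 2, and 5.75 over all replicates with an adjusted p of 0.104. H2-Q genes are close copies of each other, and the counts of single members are uncertain for that reason. The antigen-presenting heavy chain genes H2-K1 and H2-D1 lay at 86.9 to 113 and 112 to 253 CPM in EHE6 and at 293 to 562 and 267 to 728 CPM in EHE17, and neither was called. These 2 were chosen after their values were seen.

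Promoters of 4 of these genes are shown because the interferon response acts through a short DNA element, the interferon-stimulated response element. Each run holds the 120 bases before the start annotated by RefSeq, 5′ to 3′ on the strand of the gene, from the RefSeq promoter table on GRCm38.p6. Capitals mark GAAA and GAAA separated by any 2 bases, on either strand, which is the core of that element. For Gbp3 and Ifi44 the RefSeq start lies inside the GENCODE span of the gene, so the run overlaps that span.
Gbp3 (chr3:142559924-142560043, plus strand): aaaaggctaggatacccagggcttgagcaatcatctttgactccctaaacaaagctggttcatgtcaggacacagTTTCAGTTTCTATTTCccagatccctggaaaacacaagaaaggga
Tgtp2 (chr11:49064213-49064332, minus strand): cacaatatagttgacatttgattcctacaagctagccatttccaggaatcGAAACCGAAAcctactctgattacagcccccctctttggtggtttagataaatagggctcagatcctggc
Isg15 (chr4:156200819-156200938, minus strand): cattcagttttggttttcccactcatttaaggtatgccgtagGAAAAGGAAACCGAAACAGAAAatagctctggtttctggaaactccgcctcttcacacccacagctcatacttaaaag
Ifi44 (chr3:151749911-151750030, minus strand): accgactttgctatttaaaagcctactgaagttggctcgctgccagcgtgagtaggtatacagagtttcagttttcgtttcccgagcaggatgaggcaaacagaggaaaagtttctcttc
Gbp3 holds 2 overlapping matches, Tgtp2 holds 1, Isg15 holds 3 overlapping matches and Ifi44 holds 0 in these bases.

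Over the 250 bases before the start, 9 of the 10 GTPase genes with an entry in the table held this motif (90.0%), as did 10 of 22 interferon-stimulated genes (45.5%) and 3 of 16 MHC class I genes (18.8%). Among all 27025 genes of the table the share was 3.46%. In all of these shares a gene counted if any of its entries held the motif. A match describes these letters and shows no binding. Hoxb6, Hoxb7, Lyve1, Nlrc5 and Rtp4 had no entry.

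The necroptosis kinase gene Ripk3 was higher in EHE17, while Ripk1 and Mlkl, which act before and after it, were not called. Ripk3, at chr14:55784995-55788865, was at 1.72, 3.64 and 2.33 CPM in EHE6 and 31.5, 42.0 and 36.5 CPM in EHE17. The groups were far apart with little spread inside them, and the log2 fold change was 3.84 (SE 0.35, adjusted p = 0.0157). Ripk1, the kinase upstream of it, was at 63.2 to 91.6 CPM in EHE6 and 48.2 to 73.0 CPM in EHE17. Mlkl, the pore-forming substrate of RIPK3, was at 52.1 to 62.9 and 49.0 to 83.6 CPM. The lines overlapped in both of these genes. Of the 15 genes of necroptosis and pyroptosis tested, Ripk3 was the member called over all replicates, beside 0.143% of all tested genes. The list median was -0.04.

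Scn3a and Npy, best known from neurons, were among the called genes with the largest differences. Scn3a, ENSMUSG00000057182, which encodes the pore subunit of the sodium channel Nav1.3, was at 0.296, 0.466 and 0.126 CPM in EHE6 and 87.1, 44.1 and 97.2 CPM in EHE17. Its log2 fold change of 7.97 (SE 0.75, adjusted p = 0.0157) was the largest among called genes. Of the 14 sodium channel subunit genes tested it was the member called, and the median over all replicates was -0.07. Npy, the neuropeptide Y gene, was at 0.162, 0.268 and 0.525 CPM in EHE6 and 15.2, 17.6 and 48.9 CPM in EHE17 (log2 fold change 6.43, SE 0.73, adjusted p = 0.0317). Spx, which encodes the peptide hormone spexin, was at 0.485 to 0.748 and 6.48 to 10.6 CPM (3.74, adjusted p = 0.0380, or 0.113 with a replicate block). The lines did not overlap in any of Scn3a, Npy and Spx, as in 12.2% of all tested genes.

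Acod1, which makes itaconate in activated macrophages, was at 0.498, 0.296 and 0.168 CPM in EHE6 and 6.75, 11.3 and 5.86 CPM in EHE17. Its log2 fold change was 4.62 (SE 0.61, adjusted p = 0.0444, or 0.0922 with a replicate block). Clec4d, a C-type lectin receptor gene, was at 0.754, 0.522 and 1.41 CPM in EHE6 and 23.8, 22.5 and 15.0 CPM in EHE17 (4.52, SE 0.56, adjusted p = 0.0367, or 0.0721 with a replicate block). Acod1 and Clec4d are known from myeloid cells. The 10 leukocyte markers tested gave no call in any of the 3 tests, and their medians were -0.51 over all replicates, 0.17 in replicates 1 and 2 and -1.32 in replicate 3. The defining marker Ptprc (CD45) lay at 0.522 to 1.49 CPM in EHE6 and 0.381 to 0.753 CPM in EHE17, and Cd3e and Cd79a had too few reads for the test. The summed leukocyte markers were at 50.3 to 59.4 CPM in EHE6 and 91.1 to 152 CPM in EHE17, and their part in these results was not tested.

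Slc45a3, a sugar transporter gene, was at 3.004, 2.99 and 3.42 CPM in EHE6 and 38.5, 53.3 and 112 CPM in EHE17, a log2 fold change of 4.43 (SE 0.45, adjusted p = 0.0233). The EHE6 libraries were nearly equal and EHE17 replicate 3 was the highest of its line. Gdpd3, a phosphodiesterase gene of lysophospholipid metabolism, was at 0.756 to 1.10 CPM in EHE6 and 9.56 to 22.6 CPM in EHE17 (3.91, adjusted p = 0.0367, or 0.113 with a replicate block). Arhgap8, which encodes a GTPase activating protein, was at 0.126 to 0.162 CPM in EHE6 and 1.603 to 4.12 CPM in EHE17 (4.35, adjusted p = 0.0366, or 0.174 with a replicate block). Neither gene overlapped between the lines, as in 12.2% of all tested genes.

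Ltbp1, a gene of TGF-beta storage, was lower in EHE17. Ltbp1, ENSMUSG00000001870, at chr17:75005568-75392512 on the plus strand, encodes a matrix protein that holds latent TGF-beta. It was at 107, 155 and 172 CPM in EHE6 and 6.90, 4.72 and 9.07 CPM in EHE17. All EHE17 libraries lay far below all EHE6 libraries, and the log2 fold change was -4.39 (SE 0.39, adjusted p = 0.0157). The related genes Ltbp2, Ltbp3 and Ltbp4 gave no call. Ltbp4 was at 54.7 to 207 CPM in EHE6 and 249 to 635 CPM in EHE17, Ltbp2 at 1.30 to 8.57 and 13.1 to 15.4 CPM, and Ltbp3 at 217 to 418 and 205 to 354 CPM. The differences between the members themselves were not tested. Of the 18 genes of TGF-beta ligands, binding proteins and receptors Ltbp1 was the member called, and the median was 0.01. The TGF-beta receptor gene Tgfbr2 was at 523, 547 and 80.3 CPM in EHE6 and 1089, 1199 and 774 CPM in EHE17 without a call.

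Cd248 (endosialin), a surface glycoprotein of pericytes and fibroblasts, was at 14.1, 19.0 and 28.6 CPM in EHE6 and 0.969, 0.985 and 2.17 CPM in EHE17. The lines did not overlap, as in 12.2% of all tested genes, with a log2 fold change of -3.91 (SE 0.47, adjusted p = 0.0367). Adamts12, a secreted metalloprotease gene, was at 54.4, 69.7 and 45.7 CPM in EHE6 and 13.3, 9.26 and 11.96 CPM in EHE17 (-2.30, SE 0.28, adjusted p = 0.0367, or 0.113 with a replicate block). Adamts12 was the member called among 22 ADAMTS, MMP and TIMP genes, whose median was -0.07. Among the 15 genes of the fibroblast list Cd248 was the gene called over all replicates, and in replicates 1 and 2 Cd248 was lower while Col3a1, a fibrillar collagen gene chosen after its value was seen, was higher. Col3a1 was at 10.6, 8.82 and 6.49 CPM in EHE6 and 116, 198 and 24.9 CPM in EHE17, with a log2 fold change of 4.03 and an adjusted p of 0.0201 in replicates 1 and 2. The medians of the list were -0.47 over all replicates, -0.11 in replicates 1 and 2 and -1.22 in replicate 3, where 5 genes were higher and 8 lower in EHE17 by at least 1. The summed level of the list ran the other way from its medians, at 468, 435 and 383 CPM in EHE6 and 1118, 1623 and 1824 CPM in EHE17, and did not overlap between the lines. The 11 smooth muscle and pericyte genes tested gave no call, with medians of -1.55, -0.53 and -2.52. They summed to 2154, 2279 and 305 CPM in EHE6 and 604, 535 and 171 CPM in EHE17.

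B3gnt3, which extends glycan chains on core structures, was at 43.2, 42.6 and 54.9 CPM in EHE6 and 3.60, 6.29 and 3.03 CPM in EHE17. The lines were far apart, with a log2 fold change of -3.44 (SE 0.33, adjusted p = 0.0168, or 0.0516 with a replicate block), and it was the called member of 6 B3gnt genes tested. Dpysl3, a cytoskeletal regulator of growing neurites, was at 294, 261 and 336 CPM in EHE6 and 98.4, 109 and 93.9 CPM in EHE17. It had the smallest difference of the called genes, -1.56 (SE 0.21, adjusted p = 0.0444, or 0.237 with a replicate block). Its relative Crmp1 was at 44.9, 38.3 and 0.672 CPM in EHE6 and 60.6, 59.1 and 22.5 CPM in EHE17, and the line difference of Crmp1 was larger in replicate 3 by 4.53 (adjusted p = 0.0282). AI506816, a locus with no assigned function at chr5:23698296-23712667, was at 126, 102 and 201 CPM in EHE6 and 12.5, 5.37 and 6.60 CPM in EHE17 (-4.13, SE 0.43, adjusted p = 0.0252).

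The 5 predicted genes or pseudogenes called were all lower in EHE17. Rps3a2 was at 143, 104 and 163 CPM in EHE6 and 4.68, 6.51 and 3.29 CPM in EHE17, and Rps3a3 at 124, 91.5 and 133 and 4.63, 6.64 and 4.69 CPM. Both are copies of the ribosomal protein gene Rps3a1, so reads may have been split between the copies and their counts are uncertain. Gm6969 was at 20.3 to 26.2 and 1.10 to 3.14 CPM, Gm3608 at 56.0 to 73.1 and 12.7 to 17.1 CPM, and 3830403N18Rik at 44.7 to 58.9 and 0.502 to 2.76 CPM. None of the 5 overlapped between the lines, as in 12.2% of all tested genes.

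The Y-linked genes were read in EHE6 and nearly absent from EHE17. Ddx3y, a Y-linked RNA helicase gene, was at 65.5, 101 and 43.2 CPM in EHE6 and 1.29, 0.553 and 0.1003 CPM in EHE17, a log2 fold change of -6.72 (SE 0.88, adjusted p = 0.0441). Kdm5d, Uty and Eif2s3y were called as lower in replicates 1 and 2, each with an adjusted p of 0.0151 or 0.0155. In replicate 3 they had 1237, 516 and 2021 reads in EHE6 and 0 reads in EHE17. With a floor of 3 reads this is 432-fold, 180-fold and 706-fold lower. The 95% lower bounds, for counting error only, were 351-fold, 146-fold and 573-fold. Xist, the RNA of the inactive X chromosome, ran the other way, at 18.5, 14.1 and 3.97 CPM in EHE6 and 877, 178 and 318 CPM in EHE17. The lines did not overlap for Xist, as in 12.2% of all tested genes, and Xist was not called over all replicates or in replicates 1 and 2. The labels give no sex for either line.

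Inside replicates 1 and 2, where the 4 libraries were fitted alone, EHE17 was higher in 61 genes and lower in 36. These 97 genes are 0.523% of 18535 tested, and the count was 331 with a replicate block and 1689 with that block crossed (EHE6 replicate 1 with EHE17 replicate 2), a pairing chosen after seeing the data. It was 281 and 327 without EHE6 replicates 1 and 2 and 521 and 217 without EHE17 replicates 1 and 2, fits in which a line rests on a lone library assumed to vary like the pair of the other line. Replicate 3 shares no library with this fit. In it, 72 of the 97 genes differed in the same direction by at least 1 on the log2 CPM scale (48 higher and 24 lower) and 8 differed in the opposite direction by at least 1. Among the 2363 tested genes with a difference of at least 1 in replicates 1 and 2, called or not, 1088 (46.0%) had the same direction and size in replicate 3 and 362 (15.3%) the opposite. The share among the 97 was 74.2%. Replicate 3 on its own, with 1 library a line and no test, differed by at least 1 in 6273 of 18882 genes (33.2%), 3506 higher and 2767 lower.

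**Figure D3:**
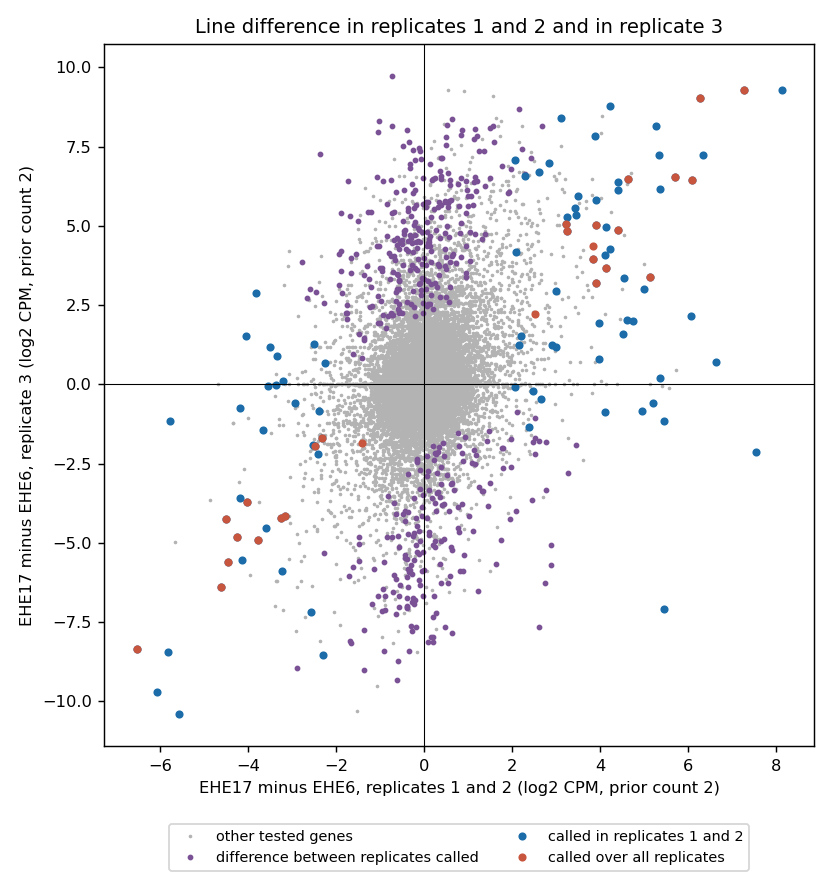
Line difference of each tested gene in replicates 1 and 2 (horizontal) and in replicate 3 (vertical), both in log2 CPM. Most genes called in replicates 1 and 2 (blue) or over all replicates (red) lie in the upper right and lower left, 72 of the 97 with at least 1 in replicate 3, while the 475 genes whose line difference changed between the sets (purple) stretch along the vertical axis.

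Among genes outside those called over all replicates, 10 higher and 9 lower genes were chosen for their size in replicates 1 and 2 and a difference of at least 1 in the same direction in replicate 3. Chodl, a membrane lectin-like gene, was at 0.0539, 0.127 and 0.0630 CPM in EHE6 and 36.5, 29.0 and 58.5 CPM in EHE17. Its log2 fold change was 8.50 (SE 0.50, adjusted p = 0.0151) in replicates 1 and 2, and 2914 against 3 reads in replicate 3 gave a ratio of 928 (95% interval 317 to 4500, counting error only). Clec4g, a lectin gene of liver and lymph node sinusoidal endothelium, was at 0.135, 0.325 and 0.0420 CPM in EHE6 and 6.04, 14.3 and 20.6 CPM in EHE17 (5.48, SE 0.69, adjusted p = 0.0440). Neither gene came close to overlap. Gpnmb, a lysosomal glycoprotein gene, was at 13.6, 26.3 and 226 CPM in EHE6 and 546, 351 and 2322 CPM in EHE17 (4.51, adjusted p = 0.0255), and replicate 3 was the highest library of either line. Tbx1, a T-box factor gene of pharyngeal and lymphatic development, was at 4.07, 1.57 and 32.4 CPM in EHE6 and 61.96, 76.2 and 130 CPM in EHE17 (4.62, adjusted p = 0.0372). Arhgap9, which encodes a GTPase activating protein, was at 0.423 to 1.45 and 9.75 to 28.6 CPM (4.22, adjusted p = 0.0453).

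On the lower side, Slco2a1, the prostaglandin transporter gene, was at 27.0, 30.9 and 51.6 CPM in EHE6 and 2.31, 4.07 and 0.843 CPM in EHE17 (-3.16, SE 0.38, adjusted p = 0.0398). Msx1, a homeobox gene, was at 27.2, 32.9 and 24.5 CPM in EHE6 and 5.96, 5.25 and 5.38 CPM in EHE17 (-2.41, adjusted p = 0.0393), with nearly equal libraries inside each line. Trabd2b, a Wnt-inhibiting protease gene, was at 15.7, 13.01 and 13.3 CPM in EHE6 and 2.53, 2.203 and 0.0602 CPM in EHE17. Its adjusted p in replicates 1 and 2 was 0.0430, and its difference was farther below 0 in replicate 3 (change -5.14, adjusted p = 0.0252). Trabd2b was not called without EHE17 replicate 2. Tmem40 was at 35.3, 25.4 and 0.714 CPM in EHE6 and 2.39, 2.27 and 0.241 CPM in EHE17, and Emb, a cell adhesion gene, at 46.2, 68.9 and 2.06 and 11.4, 8.43 and 0.522 CPM. In both of these EHE6 replicate 3 fell inside the EHE17 range, though the difference kept its direction inside replicate 3. Peg10, an imprinted gene, was at 112, 133 and 11.5 CPM in EHE6 and 22.3, 27.8 and 0 CPM in EHE17. With 548 against 0 reads and a floor of 3 reads it was 191-fold lower in EHE17 replicate 3 (95% lower bound 155-fold, counting error only). The change of its line difference was -10.24 as fitted, a value that depends on the prior count (edgeR adjusted p = 0.0171).

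The line difference itself changed between replicates 1 and 2 and replicate 3 in 475 genes, 2.52% of those tested, with a positive change (EHE17 relatively higher in replicate 3) in 276 and a negative one in 199. The count was 210 and 221 without EHE6 replicates 1 and 2, and 259 and 169 without EHE17 replicates 1 and 2. In 83 of them it was at least 1 in size with opposite signs. EHE6 replicate 3 lay farther from replicates 1 and 2 of its line than EHE17 replicate 3 did in 389 of the 475 (81.9%), and in 61.0% of all tested genes. Among genes with a mean of at least 10 CPM over the 6 libraries, the 5 that most turned from higher to lower were Rtl1, Dlk1, Fcgr2b, Sorbs3 and Vcam1. Dlk1, an imprinted gene for a Notch-related membrane protein, was at 0.283, 0.833 and 12.4 CPM in EHE6 and 27.6, 18.8 and 0.0602 CPM in EHE17. With 591 against 3 reads in replicate 3 its level was lower in EHE17 by a ratio of 206 (95% interval 70.3 to 1003), and the change was -13.02 (adjusted p = 0.0130). Rtl1, an imprinted gene at chr12:109589193-109600330, downstream of Dlk1 at chr12:109452823-109463336, was at 0.283, 0.240 and 0.105 CPM in EHE6 and 29.3, 99.5 and 0 CPM in EHE17. Replicate 3 held 5 and 0 Rtl1 reads, too few for a fold, and the fitted change of -13.71 depends on the prior count (adjusted p = 0.0470). Rtl1 has an antisense transcript, which these counts may include. Rtl1 lost its call without EHE17 replicate 2 or either of EHE6 replicates 1 and 2.

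**Figure D4:**
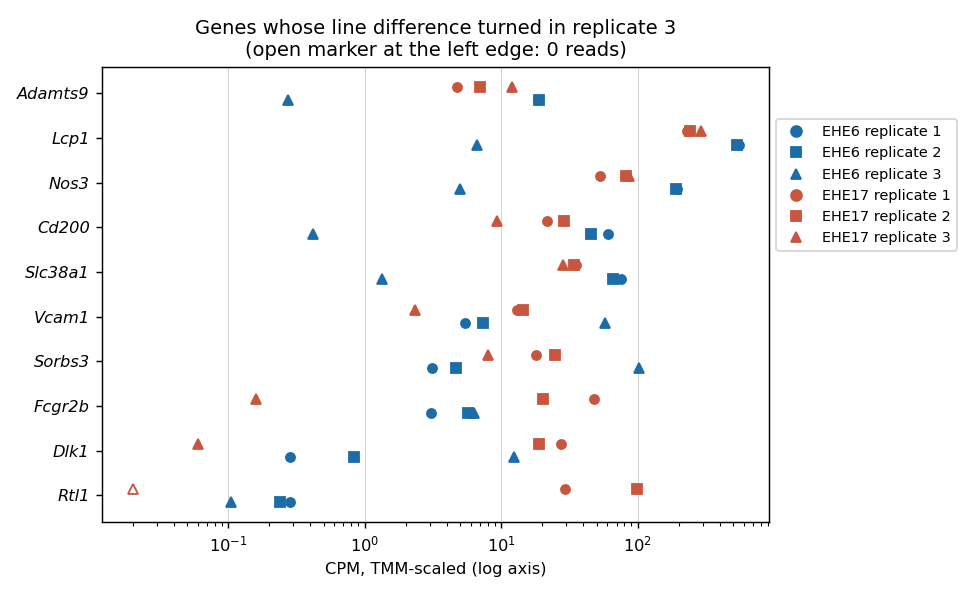
Level in each library, in CPM on a log axis, of the 5 genes per direction with the largest turn of the line difference among genes with a mean of at least 10 CPM over the 6 libraries, with colour for the line, shape for the replicate and an open marker for 0 reads. In Slc38a1, Cd200, Nos3, Lcp1 and Adamts9 the replicate 3 triangle of EHE6 is the lowest point, and in Dlk1, Rtl1, Fcgr2b and Vcam1 that of EHE17 is.

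Vcam1, the adhesion molecule that binds leukocytes on activated endothelium, was at 5.47, 7.35 and 58.0 CPM in EHE6 and 12.96, 14.5 and 2.33 CPM in EHE17 (change -5.74, adjusted p = 0.0108). Sorbs3, the vinculin-binding adaptor gene vinexin, was at 3.11, 4.70 and 102 CPM in EHE6 and 17.9, 24.9 and 8.07 CPM in EHE17 (-6.11, adjusted p = 0.0108). In both, replicate 3 was the highest library of EHE6 and the lowest of EHE17. Fcgr2b, an inhibitory Fc receptor of immune cells and sinusoidal endothelium, was at 3.08, 5.74 and 6.37 CPM in EHE6 and 48.0, 20.4 and 0.161 CPM in EHE17 (-8.25, adjusted p = 0.0320). Fcgr2b lost its call without EHE17 replicate 1 or 2.

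In the other direction, Nos3, the endothelial nitric oxide synthase gene, was at 194, 190 and 4.96 CPM in EHE6 and 53.3, 81.6 and 86.3 CPM in EHE17 (5.63, adjusted p = 0.0143). Lcp1, an actin-bundling protein gene, was at 549, 531 and 6.62 CPM in EHE6 and 230, 240 and 289 CPM in EHE17 (6.65, adjusted p = 0.0081). The EHE17 libraries were alike in Lcp1, and EHE6 replicate 3 was the library that moved. Adamts9, a secreted protease gene, was at 18.5, 18.9 and 0.273 CPM in EHE6 and 4.78, 7.04 and 12.1 CPM in EHE17 (7.12, adjusted p = 0.0131). Slc38a1, a glutamine transporter gene, was at 75.2, 66.3 and 1.34 CPM in EHE6 and 28.5 to 35.5 CPM in EHE17 (5.43, adjusted p = 0.0385). Cd200, an immune-inhibitory ligand gene, was at 60.8, 45.4 and 0.420 CPM in EHE6 and 9.35 to 28.8 CPM in EHE17 (5.55, adjusted p = 0.0311). Slc38a1 and Cd200 lost their call without EHE17 replicate 1, EHE17 replicate 2 or EHE6 replicate 1.

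In EHE6 replicate 3 several endothelial genes were low, and stromal genes differed among themselves. The endothelial receptor gene Kdr (VEGFR-2) was at 829, 1042 and 22.1 CPM in EHE6 and 569, 669 and 243 CPM in EHE17 (change 4.05, adjusted p = 0.0354), and the endothelial regulator Erg at 399, 331 and 42.0 and 233 to 260 CPM (3.26, adjusted p = 0.0418). Of 20 pan-endothelial genes, 13 were higher and 2 lower in EHE17 by at least 1 in replicate 3, against 1 and 1 in replicates 1 and 2. Over all tested genes 18.6% were higher by at least 1 in replicate 3 and 6.7% in replicates 1 and 2. The pan-endothelial medians were 2.37 and -0.19, and no member was called as different between the lines over all replicates or in replicates 1 and 2. Pdgfra, a growth factor receptor gene of mesenchymal cells, was at 3.87, 5.21 and 252 CPM in EHE6 and 1.14 to 1.76 CPM in EHE17 (-6.40, adjusted p = 0.0081). The mesenchymal transcription factor genes Prrx1 and Twist1 were at 39.7 and 27.8 CPM in EHE6 replicate 3. In each of the other 5 libraries of EHE6 and EHE17 they were at most at 1.10 CPM (-6.87 and -4.55, edgeR adjusted p = 0.0196 and 0.0320). Pdgfrb, the pericyte receptor gene, was at 21.98 CPM in EHE6 replicate 3 and 0.401 to 2.14 CPM in those other 5 libraries (-6.15, edgeR adjusted p = 0.0172). Rgs5, on the smooth muscle and pericyte list, was at 8.23, 9.92 and 183 CPM in EHE6 and 4.41, 4.15 and 0.221 CPM in EHE17. Its change was not called (-8.60, edgeR adjusted p = 0.0585). Some other stromal genes did not share this pattern. The smooth muscle actin gene Acta2, chosen after its values were seen, was at 659, 268 and 15.1 CPM in EHE6 and 12.6, 54.3 and 7.20 CPM in EHE17, and the fibroblast sum of EHE6 replicate 3 was the lowest of its line. Axl, a receptor kinase gene on the list of YAP/TAZ targets, was at 22.97, 23.6 and 1023 CPM in EHE6. In EHE17 it was at 22.2, 10.2 and 6.78 CPM (-6.71, edgeR adjusted p = 0.0163). In EHE26 replicates 1 and 2, outside the comparison, Axl was at 582.4 and 1060.5 CPM and Pdgfra at 77.5 and 59.8 CPM. The EHE26 levels were 63.0 and 28.9 CPM for Pdgfrb, 13.2 and 19.8 CPM for Prrx1 and 68.0 and 62.8 CPM for Twist1. They were 101.6 and 46.2 CPM for Kdr and 232.6 and 121.5 CPM for Erg.

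The 24 YAP/TAZ-TEAD target genes, read out here because the fusion of EHE joins TAZ, gave no call between the lines over all replicates or in replicates 1 and 2. The change of the line difference was called in 5 of the 24, Axl among them, beside 2.52% of all tested genes. In replicate 3, 5 were higher and 6 lower in EHE17 by at least 1, beside 33.2% of all tested genes in either direction. The medians of the 24 were 0.14 over all replicates, 0.14 in replicates 1 and 2 and 0.11 in replicate 3. The 24 proliferation genes gave no call either, with a median of -0.53 over all replicates, -0.55 in replicates 1 and 2 and -0.52 in replicate 3. Their median turned to 0.38 without EHE6 replicate 3, and their summed level was 1085 to 2015 CPM in EHE6 replicates 1 and 2, 806 and 1370 CPM in EHE17 replicates 1 and 2, and 5346 and 3645 CPM in replicate 3 of EHE6 and EHE17. Over the whole comparison, 2301 genes (12.2% of those tested) had EHE6 and EHE17 libraries that did not overlap, 1369 with EHE17 higher and 932 with EHE17 lower.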

How the data were processed

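RNA of 8 libraries was counted per Ensembl gene, 6 of them from EHE6 and EHE17. The authors deposited raw counts for 55401 gene identifiers, aligned with HISAT2 to mm10 per the submitters' processing notes. The version, counting tool, annotation and strand setting are not given in the sources used here. Symbols and positions came from GENCODE M21 (GRCm38), which holds 55141 of the identifiers, and the file of each sample equals its column (8 of 8). Total counts ran from 44620965 to 96237665 per library, and intervals and floors (3 counts per library) cover counting error only.

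Genes were filtered with filterByExpr and scaled with TMM factors, and line differences were tested with the quasi-likelihood test of edgeR 4.0.16 (R 4.3.3), with the line as the only term and all 8 libraries in the fit. Calls needed a Benjamini-Hochberg adjusted p under 0.05 over all tested genes and a log2 fold change of at least 1 in size. The SE is the fold change divided by the square root of F. The common biological coefficient of variation was 0.6. Replicates 1 and 2 were also fitted alone (4 libraries). Replicate 3, with 1 library a line, was read as a difference of log2 CPM (prior count 2) without a test. The change of the line difference was a contrast over 5 cells (line by replicate set, plus EHE26). The fits were also run on simulated counts whose spread was set below that of these data. Those runs do not show how the fits perform at the real spread. DESeq2 1.42.0, size factors, no filter, other samples or terms and left-out libraries were alternatives.

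Deviations of same-numbered libraries from their line means correlated across genes at 0.13, 0.18 and 0.57, and the replicate number was treated as a pairing. With replicate 3 apart in both lines, deviations of replicates 1 and 2 tend to correlate whatever their pairing. The values 0.13 and 0.18 therefore do not establish pairs. The crossed pairs correlated more (EHE6 replicate 1 with EHE17 replicate 2 at 0.54, EHE6 replicate 2 with EHE17 replicate 1 at 0.62), so for replicates 1 and 2 the numbers are a weak guide to pairs. The replicate number was a block in an alternative fit, printed where it changed a call. Over all replicates that fit also left out EHE26, so its values combine the block with the loss of EHE26. The pairing comes from these values, since the labels name no shared batch. No 2 replicates were within sampling noise of each other (chi-square per degree of freedom 131.7 to 673).

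Named genes are all called genes with a symbol that are not predicted, up to 10 per direction from replicates 1 and 2 with the same sign in replicate 3 (mean of at least 10 CPM), up to 5 per direction that turned (mean of at least 10 CPM over the 6 libraries), up to 4 per list, and a fixed group. A few genes that this rule names are not reported here. Genes that spell out a small count were added after their values were seen. Genes and lists were chosen with earlier results of these data known.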

Additional observations from a re-analysis of the deposited data

Results flagged for a closer look

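In 23 of the genes named in the text the test of the difference itself (edgeR quasi-likelihood, Benjamini-Hochberg adjusted) found that EHE17 against EHE6 was not the same in replicate 3 as in replicates 1 and 2. The 23 come from the naming rule and leave out genes added after their values were seen. Hand2 and Fam167b, described below, are added genes that also had a called change. Each replicate 3 cell is a lone library that is assumed to vary like the pairs. The values are the line difference in replicate 3 minus that in replicates 1 and 2, on the log2 scale.

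A positive value means that EHE17 was relatively higher in replicate 3, a negative one that it was relatively lower. The change was 5.63 for Nos3, 4.05 for Kdr, 3.26 for Erg and 4.69 for Mmrn1. It was -6.40 for Pdgfra, -6.15 for Pdgfrb, -6.87 for Prrx1 and -4.55 for Twist1. It was -13.02 for Dlk1, -13.71 for Rtl1 and -10.24 for Peg10, and the last 2 have a library with 0 reads. It was -8.25 for Fcgr2b, -5.74 for Vcam1, -6.11 for Sorbs3, -6.71 for Axl, -3.20 for Rtp4, 5.55 for Cd200 and 6.65 for Lcp1. It was 7.12 for Adamts9, 5.43 for Slc38a1, 4.53 for Crmp1, -5.14 for Trabd2b and -2.70 for Hoxd10.

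Across these genes EHE6 replicate 3 was the shallowest library, at 44620965 counts, and had the lowest pan-endothelial sum, at 4948 CPM. What these values have to do with the changes was not tested.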

How the results depend on the processing

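With size factors in place of TMM the counts were 27 genes over all replicates, 98 in replicates 1 and 2, 6274 in replicate 3, 455 for the change of the line difference and 73 of the genes called in replicates 1 and 2 with the same sign and at least 1 in size in replicate 3, all close to the reported 27, 97, 6273, 475 and 72. Without the low-count filter they were 142, 898, 1653 for the change and 533 with the same sign and size, and with DESeq2 they were 392, 893, 1434 and 528. All 22 named called genes kept their call under these 3 settings. With EHE6 and EHE17 libraries alone 7 genes were called over all replicates and 3 of the 22 kept their call (Hoxb7, Ltbp1, Scn3a), while 715 genes were called for the change. With replicate 3 as a term 57 were called and Arhgap8, Dpysl3, Gbp3 and Nlrc5 lost their call. The replicate block gave 19 over all replicates, where 11 of the 22 lost their call, and 331 in replicates 1 and 2. It ended no call of the 19 genes named from replicates 1 and 2. Over all replicates the replicate 3 term and the block were both fitted without EHE26. Their counts therefore stand beside the 7 of the same libraries with neither term, where 19 of the 22 lost their call. The replicate block with crossed numbers (EHE6 replicate 1 with EHE17 replicate 2, added after seeing the data) gave 1689. Fitted in all 8 libraries, replicates 1 and 2 gave 150, without Arhgap9, Chodl, Clec4g, Eif2s3y, Emb and Msx1. With 1 library left out, the counts ran from 1 to 54 over all replicates, 217 to 521 in replicates 1 and 2, 169 to 259 for the change and 157 to 302 with the same sign and size. With a mean of at least 1 CPM, 3325 genes differed by at least 1 in replicate 3. None of the 22 genes called over all replicates, the 19 named from replicates 1 and 2 and the 10 that turned changed the direction of the value they were named for. Over all replicates 7 named genes, none of them called, turned from lower to higher or the reverse with replicate 3 as a term or with the replicate block (Cd200, Cdh5, Erg, Kdr, Lcp1, Slc38a1 and Sorbs3). The spread among 3 libraries a line limits these calls, replicate 3 has no replicate check, and the causes of these changes of count were not tested.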

Other observations

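The EHE26 line, which took no part in the comparison, was set beside the 27 genes called between EHE17 and EHE6. In 14 of them both EHE26 libraries lay on the EHE17 side of the midpoint between the mean log2 levels of the lines (CPM plus 0.1), in 13 both lay on the EHE6 side, and in 0 the libraries lay on different sides. Hoxb7 was at 52.4 and 43.7 CPM in EHE26 replicates 1 and 2, Nlrc5 at 57.1 and 68.95 CPM and Gbp3 at 125 and 109 CPM, all on the EHE17 side. Lyve1 was at 11.1 and 5.0003 CPM, Scn3a at 0.846 and 0.241 CPM and Ltbp1 at 53.4 and 93.7 CPM, all on the EHE6 side. B3gnt3 was at 300.5 and 286 CPM, above every library of EHE6 and EHE17.

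Of the 8 genes called in replicates 1 and 2 with the opposite direction by at least 1 in replicate 3, Dlk1 and Rtl1 are described above and the other 6 were named after their values were seen. Hand2, a basic helix-loop-helix factor gene of heart and limb development, was at 4.88, 5.96 and 0.0630 CPM in EHE6 and 0.298, 0.299 and 0.241 CPM in EHE17. Serping1, the C1 inhibitor gene of the complement system, was at 23.4, 19.3 and 63.7 CPM in EHE6 and 103, 118 and 24.9 CPM in EHE17. Pnoc, the prepronociceptin gene, was at 0.0539 to 0.198 CPM in EHE6 and 6.78, 5.38 and 0.0401 CPM in EHE17. Fam167b was at 229, 175 and 14.3 CPM in EHE6 and 29.2, 42.1 and 35.1 CPM in EHE17. Clic6, a chloride channel family gene, was at 29.2, 29.99 and 0 CPM in EHE6 and 2.29, 2.94 and 0.0401 CPM in EHE17. The potassium channel gene Kcna6 was at 4.28, 5.33 and 0 CPM in EHE6 and 0.323, 0.299 and 0.201 CPM in EHE17. In replicate 3 both lines were thus under 1 CPM for Hand2, Pnoc, Clic6 and Kcna6, and of these 6 genes the change of the line difference was called for Hand2 and Fam167b (edgeR adjusted p = 0.0276 and 0.0393).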
